A study of Mus musculus with 4 samples.

Results

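The neurotrophin genes Ntf3 and Bdnf, the Trk receptor genes Ntrk2 and Ntrk3, the p75 receptor gene Ngfr and the sortilin gene Sort1 were followed in nuclei of the mouse medial cortex at the embryonic stage E16.5. These 6 genes were taken by symbol from the 56884 genes of the count tables. They had been selected on their measured levels over cell types and libraries in these data. These were CPM and transcript counts by class and genotype, and levels in ligand against receptor cells. Levels by cell type and ligand-receptor values are therefore given as a description with no test. Controls were Sst-Cre/tdTomato mice, with Cre and a red fluorescent reporter, and Dnmt1 KO mice were Sst-Cre/tdTomato/Dnmt1 loxP2, with the same transgenes and Dnmt1 alleles flanked by loxP sites. Cre under the somatostatin gene acts in cells that have expressed Sst, so most nuclei of a Dnmt1 KO cortex were not targeted, and with no entry for Cre or tdTomato in the count tables the targeted nuclei were not identified. All animals were on a C57BL/6J background, and each genotype had 2 libraries from 2 brains. Single-nucleus RNA sequencing by split-pool barcoding (Parse Evercode) gave counts of transcripts per nucleus and gene. The comparison of genotypes asks whether loss of Dnmt1 in these interneurons changes trophic signalling genes in them or in the surrounding cortex.

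Neurotrophins are secreted growth factors. Ntf3 encodes neurotrophin-3, the main ligand of TrkC (Ntrk3), and Bdnf encodes brain-derived neurotrophic factor, a ligand of TrkB (Ntrk2). Ngfr encodes p75NTR, which binds every neurotrophin and has a higher affinity for the uncleaved precursors together with sortilin, the Sort1 product. Sortilin in addition sorts neurotrophin precursors inside the cell. In the embryonic cortex these factors act on the survival, migration and maturation of neurons.

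Values of the 4 libraries are listed throughout in the order Dnmt1 KO replicate 1, Dnmt1 KO replicate 2, control replicate 1, control replicate 2. Barcodes of 1500 to 60000 transcripts were kept, which left 5640, 12064, 7047 and 4905 nuclei, 29656 in all, with 0 barcodes shared between libraries. Depth was 12274 to 12401 transcripts per nucleus at the median in 3 libraries and 21140 in control replicate 2, which alone came from batch 2. Nuclei were gated one by one with marker lists that held none of the 6 genes, which gave a class to 77.9% of them. A class is a group of nuclei that resembles a cell type, as in hippocampal-lineage-like, and the suffix is left out from here on. Near the limit of the gate, 1955 nuclei were just inside and 2041 just outside. Neuronal classes of the cortex were present in every library, and Neurod6, a gene of cortical excitatory neurons, stood at 84.6, 62.8, 95.1 and 112 CPM (transcripts of a gene relative to those of all genes in the nuclei summed, on a common scale). Hippocampal lineage nuclei, the class with the most Ntf3, made up 5.92%, 4.72%, 2.28% and 2.10% of the libraries. Other classes also differed between libraries. Upper-layer neurons made up 6.52%, 12.5%, 14.5% and 22.4%. Striatal and LGE (lateral ganglionic eminence) neurons numbered 12, 56, 360 and 8, and CGE (caudal ganglionic eminence) interneurons 37, 403, 272 and 78. Choroid plexus nuclei numbered 1, 135, 3 and 1, and meningeal fibroblasts 1, 232, 0 and 4. The part of these differences in sums over all retained nuclei was not tested.

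The targeted gene Dnmt1, which encodes DNA methyltransferase 1, had 61.8, 47.5, 59.6 and 56.0 CPM in the sum of all retained nuclei. In Sst+/Gad2+ nuclei, which held a transcript of each of these interneuron genes, it had 76.1, 46.1, 81.2 and 66.5 CPM from 18, 99, 67 and 46 transcripts. The genotypes overlapped in both populations. In Sst+/Gad2+ nuclei the log2 fold change of Dnmt1 KO over control was -0.35 with an SE of 0.328 and an edgeR adjusted p of 1.00. A 3' end that remains after deletion of inner exons would still be counted, so this value does not tell whether the allele was recombined. For this mouse model, the study reports less Dnmt1 RNA in tdTomato+ cells sorted from the cortex at an earlier embryonic stage. It also reports weaker DNMT1 immunostaining in tdTomato+ cells of embryos of that earlier stage and of adults.

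Ntf3 (chromosome 6, 126078375 to 126143873, minus strand, GRCm39) had the largest log2 fold change between genotypes among the 6 when all retained nuclei were summed, and Dnmt1 methylates cytosines followed by guanines (CpG). The 250 bases before each of its 2 annotated start sites are shown, with CpG in capitals, on the minus strand from 5′ to 3′. Methylation was not measured in these libraries. The fold change was not called, and a link between it and these sites was not tested.

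Ntf3 start 1, chr6:126141947-126142196: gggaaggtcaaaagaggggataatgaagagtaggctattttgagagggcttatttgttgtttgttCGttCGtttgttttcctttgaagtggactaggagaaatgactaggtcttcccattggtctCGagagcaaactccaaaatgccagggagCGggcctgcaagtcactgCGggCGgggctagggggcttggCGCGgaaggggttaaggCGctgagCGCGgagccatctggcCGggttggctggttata
Ntf3 start 2, chr6:126143874-126144123: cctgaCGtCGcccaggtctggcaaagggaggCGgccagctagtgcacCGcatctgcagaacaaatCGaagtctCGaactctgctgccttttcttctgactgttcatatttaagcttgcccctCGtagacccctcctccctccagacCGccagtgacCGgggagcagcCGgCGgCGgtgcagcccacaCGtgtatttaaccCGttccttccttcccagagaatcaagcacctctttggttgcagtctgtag

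These windows held 12 and 14 CpG. Over 67400 such windows of 21575 genes the median was 8 CpG, and 39.0% and 34.1% of windows held as many as the Ntf3 windows or more. Among the other genes, the single windows of Ngfr and Sort1 held 16 and 22 CpG, the 16 windows of Bdnf held 1 to 21, the 9 of Ntrk2 held 7 to 26 and the 6 of Ntrk3 held 1 to 26. Bdnf lies on chromosome 2 (109505045 to 109557475, plus strand), Ntrk2 on chromosome 13 (58954176 to 59281784, plus), Ntrk3 on chromosome 7 (77825707 to 78387760, minus), Ngfr on chromosome 11 (95459638 to 95478561, minus) and Sort1 on chromosome 3 (108191285 to 108268842, plus). An antisense long noncoding RNA overlaps Ntf3 (Gm67883) and another overlaps Bdnf (Gm45346), and 7 genes overlap Ntrk2 and 6 overlap Ntrk3. Counts per gene do not separate the kinase and truncated forms of the Trk receptors.

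Ntf3 transcripts were few and concentrated in the hippocampal lineage. This class held 30.3% of all Ntf3 transcripts in 3.94% of the nuclei, and from 26.4% to 33.0% in each library. Its level there was 60.4, 33.4, 64.2 and 13.5 CPM. A transcript was found in 26.9%, 17.9%, 18.6% and 14.6% of these nuclei, and in 8.98%, 3.69%, 6.83% and 3.88% after thinning each nucleus to 1500 transcripts. For comparison, CGE interneurons, cells born in the caudal ganglionic eminence, held 1 Ntf3 transcript in all libraries together. Genotypes overlapped within the hippocampal lineage, with control replicate 1 highest and control replicate 2 lowest.

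Outside the hippocampal lineage, the libraries differed widely in Ntf3. In upper-layer neurons it stood at 31.6 CPM in Dnmt1 KO replicate 1 (138 transcripts in 24 nuclei), 1.55 in Dnmt1 KO replicate 2, 4.75 in control replicate 1 and 0.621 in control replicate 2. Dnmt1 KO replicate 1 alone stood apart here. In its upper-layer neurons the migrating newborn neuron list (5598 CPM against 2831 to 4036) and the layer 6 list (3587 against 1393 to 2359) were highest, the upper-layer list was lowest (6534 against 7977 to 8755), and their part in the Ntf3 level was not tested. In layer 5 neurons the levels were 6.30, 11.4, 5.84 and 0 CPM, and 0 transcripts in the 398 nuclei of control replicate 2 set a limit of 0.239 CPM (3 transcripts, counting error alone). Cajal-Retzius cells, the Reln-secreting cells of the marginal zone, ranged from 0 to 16.8 CPM. Of 14 classes with at least 50 nuclei, and at least 20 in each of 2 or more libraries, each overlapped with the next in order of Ntf3.

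A minority of Ntf3+ nuclei held most of its transcripts. Over all retained nuclei, those with an Ntf3 transcript numbered 285, 339, 132 and 53, and their median was 2 transcripts in each library. Nuclei with at least 5 Ntf3 transcripts numbered 66, 83, 30 and 12, and they held 58.1%, 60.0%, 62.1% and 60.1% of the Ntf3 transcripts of their library. The highest nucleus of each library had 25 to 33 transcripts. For Bdnf the share in nuclei with at least 5 transcripts was 13.3% to 20.2%, and the highest nuclei had 7 to 18.

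In the class that contains the targeted lineage, MGE interneurons (born in the medial ganglionic eminence), Ntf3 was detected in Dnmt1 KO libraries alone. Dnmt1 KO replicate 1 had 4 transcripts in 1 nucleus (1.27 CPM) and Dnmt1 KO replicate 2 had 42 in 11 nuclei (3.38 CPM). Both controls had 0, which sets a limit of 0.419 CPM in each if transcripts are taken as independent. Ntf3 transcripts lay several to a nucleus, so this limit is too low and does not show that the controls were lower. Both Dnmt1 KO libraries were above both controls for 10.5% of all 26194 genes with a count in this class. With classes from clusters in place of the gate, the levels were 1.17, 1.96, 0.137 and 0 CPM, so 1 transcript appeared in control replicate 1. Among Sst+/Gad2+ nuclei, Ntf3 was found in 3 of 136 nuclei of Dnmt1 KO replicate 2, with 5, 5 and 9 transcripts, and the other libraries had 0 in 16, 40 and 27 nuclei. These 3 nuclei lay in a cluster named MGE interneurons and were not called doublets. The limits that 0 transcripts set in these small groups were 12.7 CPM in Dnmt1 KO replicate 1 and 3.64 and 4.33 CPM in the controls. Dnmt1 KO replicate 2 had 8.84 CPM, all from 3 nuclei. Such limits take transcripts as independent, so 0 in so few nuclei does not show that the other libraries were lower. Summed levels of cortical hem markers in Sst+/Gad2+ nuclei were 0, 56.8, 1.21 and 1.44 CPM, with 2 of 6 markers at 0, and those of choroid plexus markers were 4.23, 127, 32.7 and 0 CPM, with 0 of 6 at 0. In MGE interneurons the choroid plexus list summed to 3.49, 21.0, 2.52 and 2.65 CPM and the hem list to 3.17 to 4.75 CPM. The hippocampal lineage list was not highest in Dnmt1 KO replicate 2 in either population (829, 1200, 1155 and 1471 CPM in Sst+/Gad2+ nuclei, 718, 966, 1129 and 955 CPM in MGE interneurons). Dnmt1 KO replicate 2 held 135 of the 140 nuclei gated as choroid plexus. The part of these markers in the Ntf3 result was not tested.

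Bdnf was highest in the hippocampal lineage as well. It stood at 19.2, 16.8, 26.5 and 12.8 CPM, above the 4.45 to 9.38 CPM of layer 5 neurons with no overlap. Layer 5 neurons and radial glia followed (2.52 to 5.78 CPM in radial glia), and layer 6 neurons had 0.324 to 0.939 CPM. The order of the first 2 classes depended on how nuclei were assigned. With classes from clusters, the hippocampal lineage had 5.93, 6.86, 6.11 and 11.5 CPM and layer 5 neurons had 14.7, 13.3, 8.05 and 7.10. Of the gated hippocampal lineage nuclei, 33.2% were in the cluster of that name and 18.8% in a layer 5 cluster. Clusters named radial glia held 14.7%, 8.91% and 1.29%, and clusters left without a name held 5.31%, 5.06% and 0.257%. The name of that layer 5 cluster is doubtful: 3 layer 5 markers were detected in it, but 0 were among its 10 leading genes (Slit3, Gm32647 and Epha6 first), and Gm32647 and Zfp385b led the gated hippocampal lineage as well. Values by cluster for layer 5 and deep-layer neurons include it. Ntf3 stayed highest in the hippocampal lineage under both assignments, with 89.3, 42.1, 57.2 and 17.8 CPM by cluster.

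**Figure D1:**
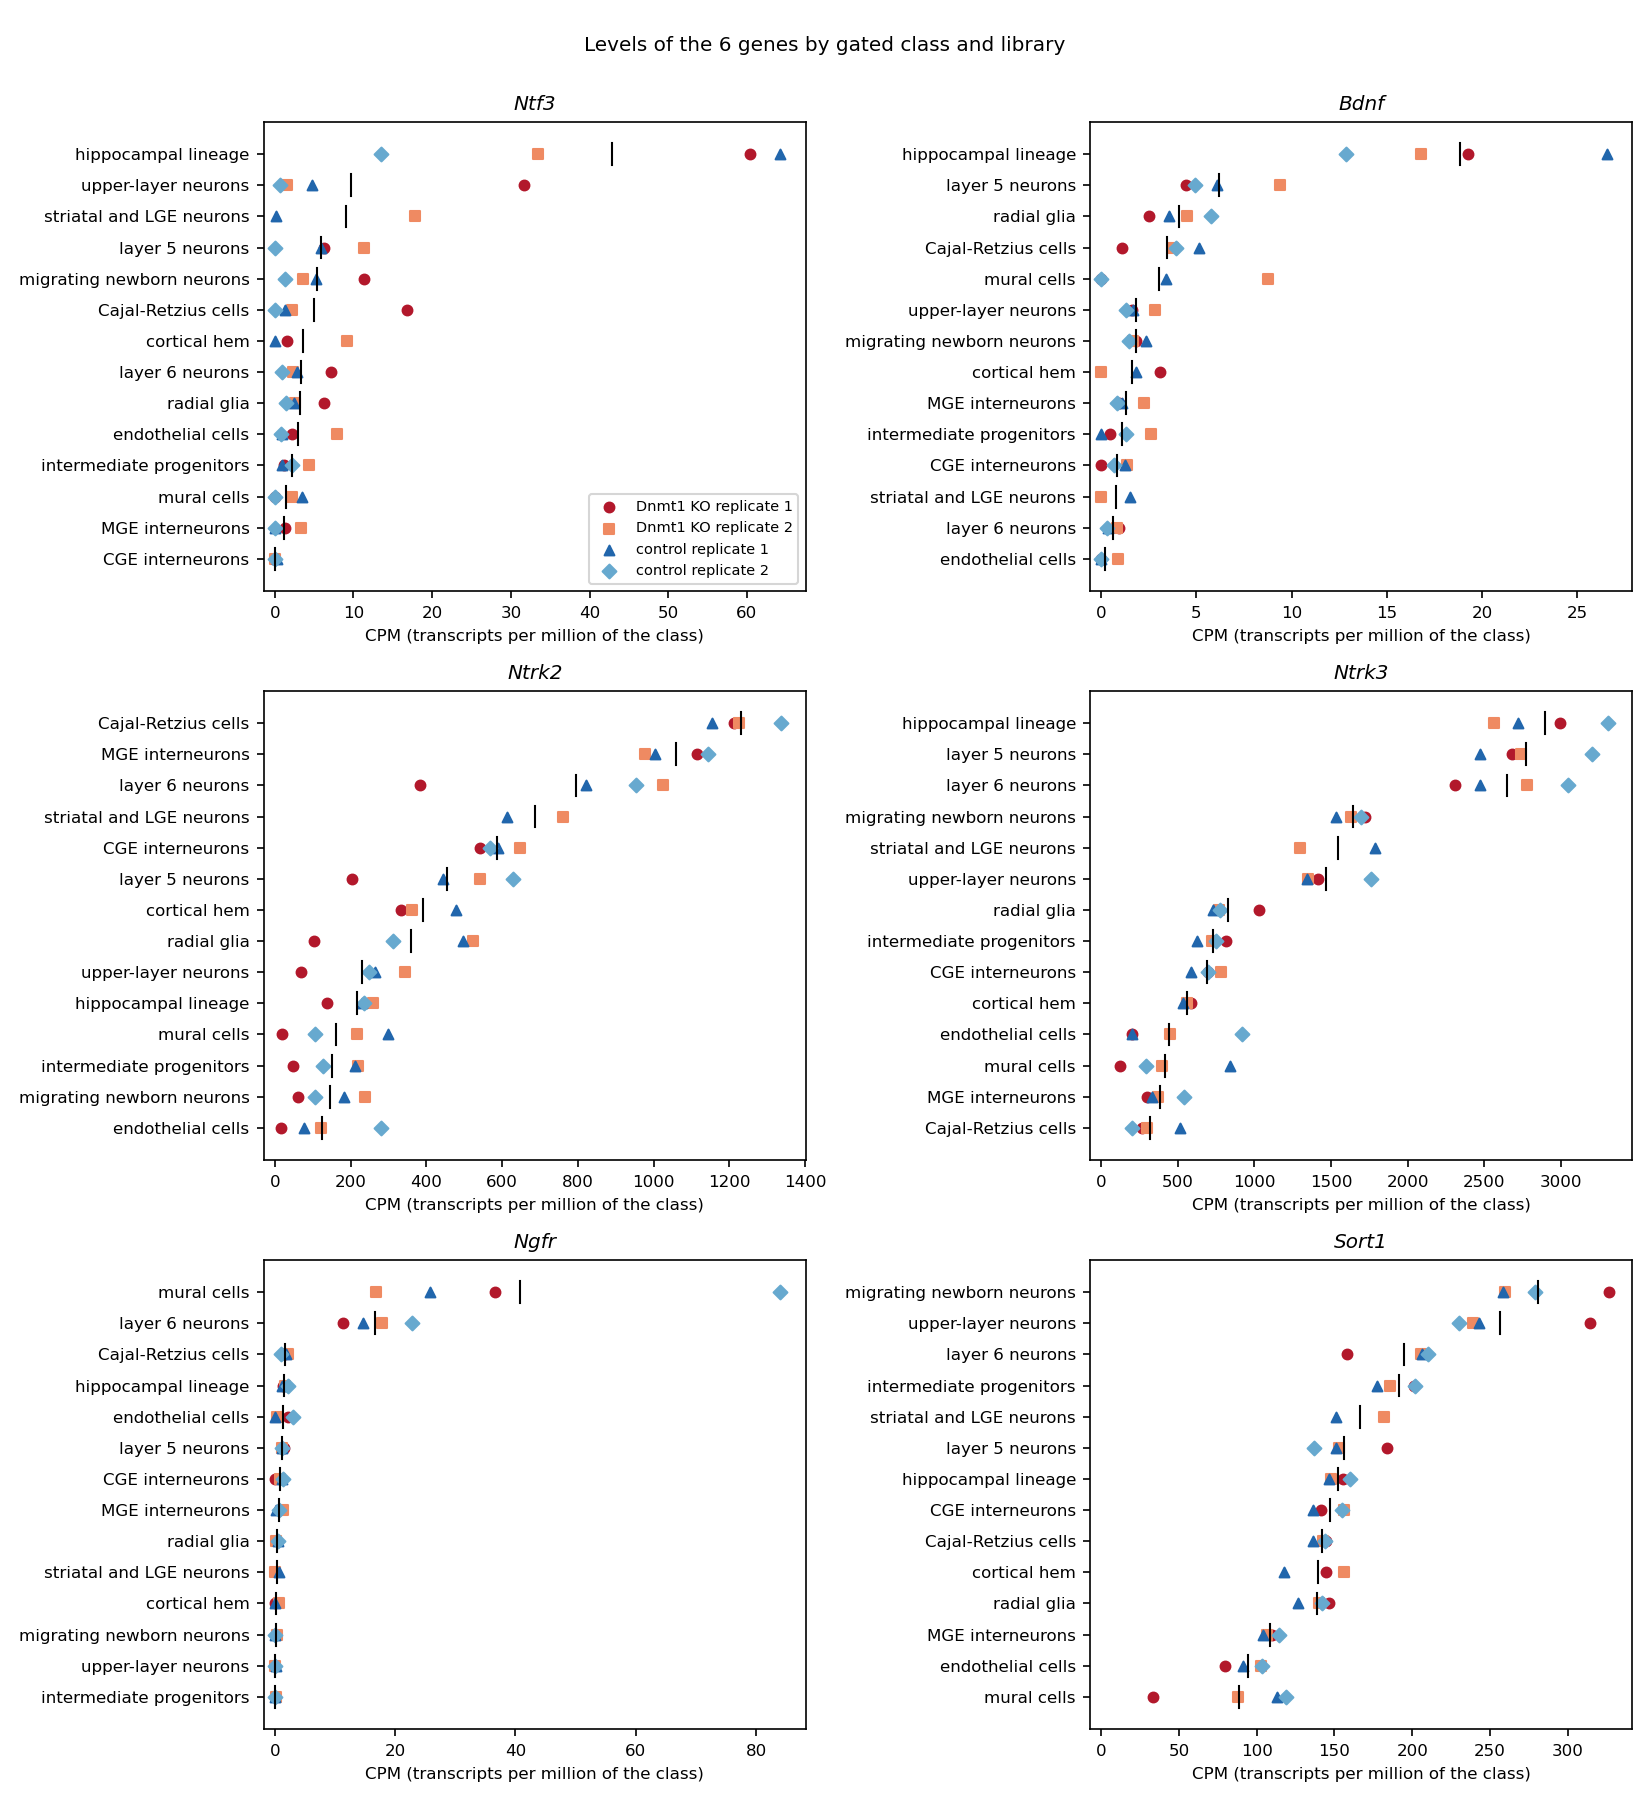
Levels of the 6 genes by gated class. The horizontal axis gives CPM, each symbol is 1 library with at least 20 nuclei of the class, and the black bar is the mean over libraries. Ntf3 and Bdnf are highest in the hippocampal lineage, Ntrk2 in Cajal-Retzius cells and MGE interneurons, Ntrk3 in the hippocampal lineage and layers 5 and 6, Ngfr in mural cells and layer 6, and Sort1 in migrating and upper-layer neurons.

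Ntrk2, the TrkB gene, was highest in Cajal-Retzius cells, where it stood at 1212, 1226, 1155 and 1336 CPM. MGE interneurons followed with 1115, 977, 1003 and 1143 CPM, below Cajal-Retzius cells with no overlap. The 4 libraries kept close together in both classes. Sst+/Gad2+ nuclei had 1531, 1027, 899 and 1264 CPM, and at least 97.5% of them held an Ntrk2 transcript in each library. Layer 6 neurons held the largest share of Ntrk2 transcripts, 29.2%, and MGE interneurons held 14.0% in 7.61% of the nuclei.

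One library deviated in Ntrk2, and it did so in some classes and not in others. In radial glia, the stem cells of the cortex, the levels were 105, 523, 496 and 311 CPM, with Dnmt1 KO replicate 1 far below the rest. Upper-layer neurons had 68.8 CPM in Dnmt1 KO replicate 1 against 344, 265 and 248 in the other libraries, and layer 6 neurons had 383 against 1025, 821 and 955. Intermediate progenitors had 47.3 CPM in Dnmt1 KO replicate 1 against 126 to 220. The same library was lowest in layer 5 neurons (204 against 445 to 630 CPM), migrating newborn neurons (60.9 against 106 to 237), the hippocampal lineage (138 against 232 to 259), endothelial cells (17.3 against 78.2 to 281) and mural cells (18.3 against 107 to 300). It was within the range of the other libraries in MGE interneurons and Cajal-Retzius cells and was the lowest in CGE interneurons by a smaller margin (542 against 569 to 648 CPM). After thinning each nucleus to 1500 transcripts, 13.4% of its radial glia held an Ntrk2 transcript against 32.1% to 44.4% in the other libraries. In clusters named radial glia it had 116 CPM against 368 to 511. Markers in gated radial glia of this library differed as well. The radial glia list (2949 against 3875 to 5067 CPM) and the migrating newborn neuron list (285 against 586 to 730) were lowest. The intermediate progenitor list was highest (494 against 332 to 462). The hippocampal lineage list was within the range of the other libraries (5448 against 4484 to 5666). Their part in the Ntrk2 level was not tested.

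Ntrk3, the TrkC gene, was highest in projection neurons of the deep layers and the hippocampal lineage. Hippocampal lineage nuclei had 2996, 2567, 2721 and 3306 CPM, layer 5 neurons had 2683, 2742, 2473 and 3207, and layer 6 neurons had 2312, 2777, 2472 and 3046. These 3 classes overlapped among themselves and stood above migrating newborn neurons (1532 to 1721 CPM) with no overlap. Ntrk3 was low in Cajal-Retzius cells and MGE interneurons, where Ntrk2 was highest, but layer 6 neurons were high in both genes. Layer 6 neurons held 29.2% of Ntrk2 and 25.7% of Ntrk3 transcripts, and their Ntrk2 range overlapped with that of MGE interneurons. MGE interneurons had 300, 373, 332 and 538 CPM of Ntrk3 and Cajal-Retzius cells 264, 301, 512 and 201. Control replicate 2 had the highest Ntrk3 level over all retained nuclei, 2029 CPM against 1514 to 1740 in the other libraries. MGE interneurons held 1.47% of the Ntrk3 transcripts.

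Ngfr, the p75 gene, was concentrated in few classes. Layer 6 neurons held 74.8% of all Ngfr transcripts, at 11.4, 17.8, 14.6 and 22.7 CPM. The layer 6 class may include subplate neurons, as which the gate placed 36 nuclei. A main cluster of this class was left without a name and had the subplate marker Nr4a2 among its 10 leading genes. The part of subplate neurons in the Ngfr level was not tested. Mural cells, which surround blood vessels, had 36.5, 16.8, 25.7 and 84.1 CPM from 12, 23, 15 and 29 transcripts, and overlapped with layer 6. The next class, Cajal-Retzius cells, had 1.12 to 2.14 CPM, below layer 6 with no overlap. Layer 5 neurons had 1.12 to 1.48 CPM, and intermediate progenitors had 1 transcript in all libraries together. The share of layer 6 nuclei with an Ngfr transcript was 14.9%, 20.9%, 16.6% and 32.7%, and it was 0.893%, 2.99%, 1.76% and 3.07% after thinning. At equal depth, control replicate 2 and Dnmt1 KO replicate 2 were close together, and Dnmt1 KO replicate 1 was lowest.

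Sort1, the sortilin gene, was found in all 14 classes of every library with at least 20 nuclei. Migrating newborn neurons had 327, 259, 258 and 279 CPM, and upper-layer neurons had 314, 239, 243 and 230. MGE interneurons had 110, 107, 104 and 114 CPM, below radial glia (127 to 146 CPM) and above endothelial cells (79.9 to 103 CPM) with no overlap. The lowest level was 33.5 CPM, in the mural cells of Dnmt1 KO replicate 1. In Sst+/Gad2+ nuclei, Sort1 stood at 84.6, 99.1, 93.3 and 101 CPM.

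**Figure D2:**
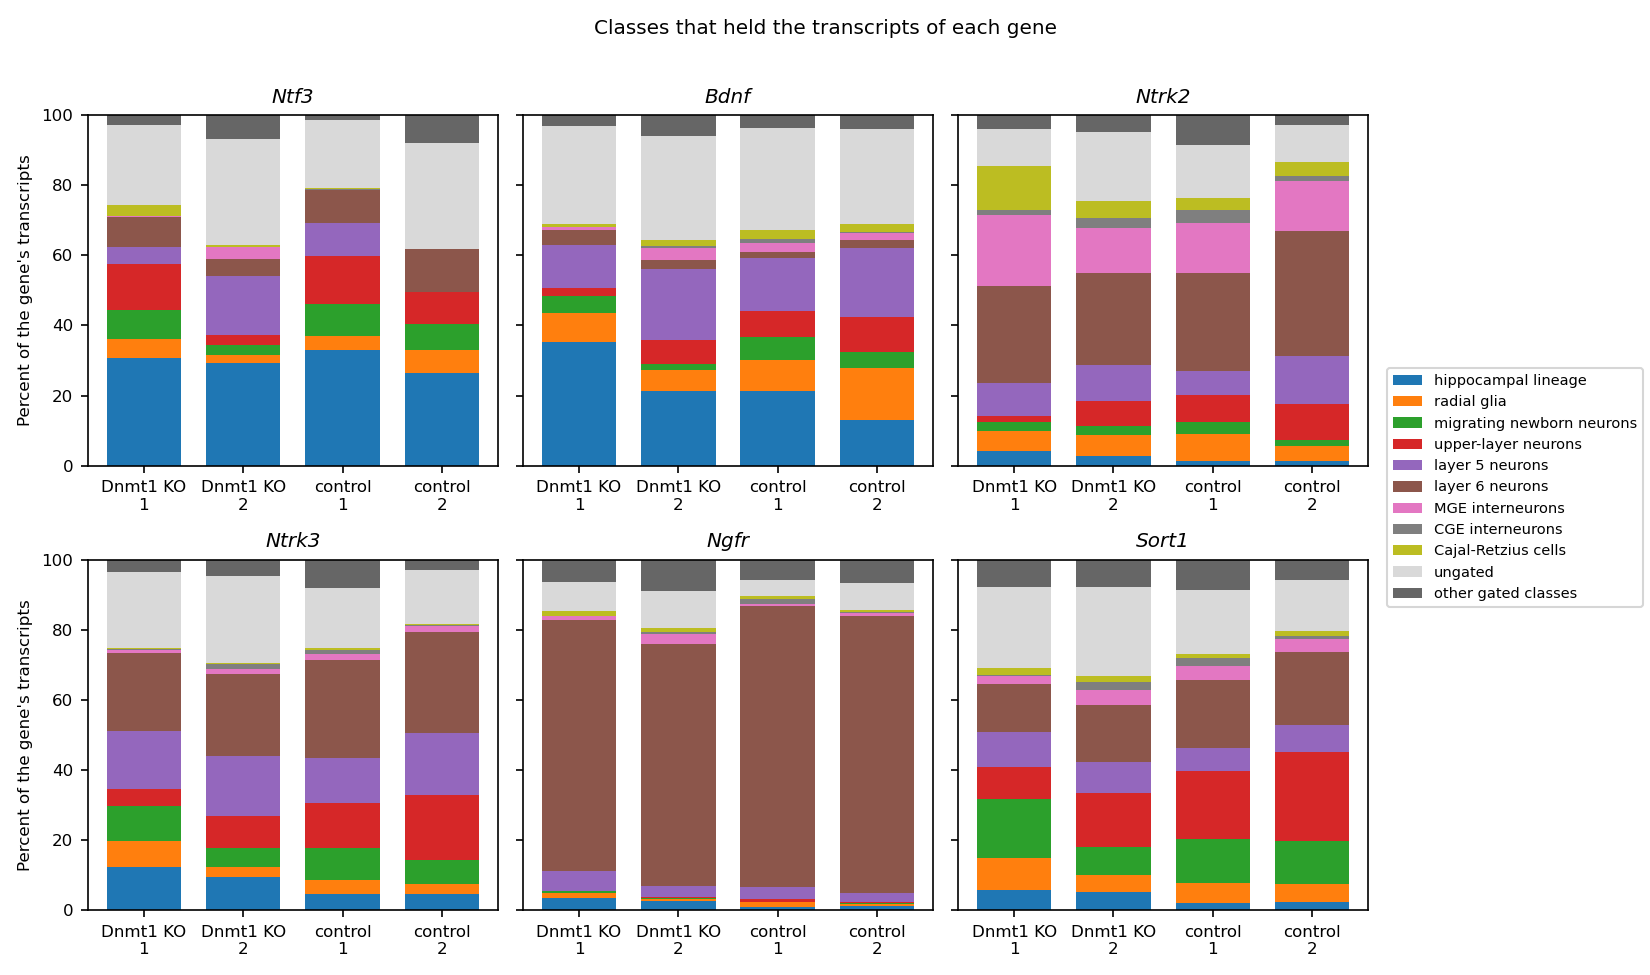
Percent of each gene's transcripts found in each gated class, with a bar for each library. The hippocampal lineage held 26.4% to 33.0% of Ntf3 transcripts in the 4 libraries, and layer 6 neurons held 68.9% to 80.4% of Ngfr transcripts.

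The genotypes were compared with edgeR's quasi-likelihood test on counts summed per library, fitted over all genes and adjusted over all genes (Benjamini-Hochberg, threshold 0.05). Values by genotype were in view when the 6 genes were chosen, so their p-values describe these libraries and are not independent evidence. A p that misses this threshold does not show that values did not differ. In 7 populations (all retained nuclei, radial glia, intermediate progenitors, upper-layer neurons, deep-layer neurons, MGE interneurons and Sst+/Gad2+ nuclei), 6, 5, 3, 5, 6, 3 and 3 of the 6 genes passed the filter on low counts and were tested. Of those tested, 0 were called, and 0 had an unadjusted p under 0.05. Over all genes tested, 0% were called in each of these populations, from 7219 genes in Sst+/Gad2+ nuclei to 21516 in all retained nuclei. Of all genes, 7.49% had an unadjusted p under 0.05 in all retained nuclei, 5.3% in radial glia, 5.2% in intermediate progenitors, 2.82% in upper-layer neurons, 5.52% in deep-layer neurons, 5.82% in MGE interneurons and 2.95% in Sst+/Gad2+ nuclei. DESeq2 called 196 genes in all retained nuclei and 0 to 12 in the other populations, and none of the 6.

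Over all retained nuclei, Ntf3 stood at 14.0, 6.90, 5.04 and 1.45 CPM, from 1054, 1192, 506 and 163 transcripts. Both Dnmt1 KO libraries were above both controls, as they were for 19.3% of all genes. The log2 fold change was 1.67 (SE 0.659) with an edgeR adjusted p of 0.649. Leaving out 1 library at a time gave 1.05 to 2.81, lowest without control replicate 2 and highest without control replicate 1. In sums over many cell types, fewer cells of a type and less RNA per cell cannot be told apart. The summed level of the 6 hippocampal lineage markers was 3331, 2603, 1901 and 1767 CPM, with 5 of 6 higher in both Dnmt1 KO libraries, and the 6 cortical hem markers were all higher in both and summed to 120, 99.7, 44.6 and 53.6 CPM. With nuclei of both classes left out, a choice made after the data were seen, Ntf3 was 10.6, 5.15, 3.49 and 1.08 CPM and its log2 fold change 1.77 (edgeR adjusted p 0.730). The hippocampal lineage list still summed to 2661, 2076, 1698 and 1499 CPM in the nuclei that remained, with 3 of 6 higher in both. This list is not limited to hippocampal cells, as gated radial glia had 5448, 5666, 4686 and 4484 CPM of it. Over all retained nuclei, the 8 Cajal-Retzius markers summed to 885, 677, 499 and 552 CPM, with 6 higher in both Dnmt1 KO libraries. The 6 upper-layer markers summed to 1553, 2150, 2593 and 3289 CPM, with 5 lower in both. Of the 21516 genes tested, 4462 were lower in both Dnmt1 KO libraries. With the same nuclei left out, the sums were 946, 712, 509 and 563 CPM and 1642, 2251, 2649 and 3367 CPM. The part of these markers in the Ntf3 level was not tested.

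Within classes, the genotype difference of Ntf3 depended on single libraries. In upper-layer neurons Ntf3 had a log2 fold change of 2.58 with an SE of 1.54 (edgeR adjusted p 0.989), and it was -0.67 without Dnmt1 KO replicate 1. With classes from clusters it was 1.70. In these neurons the hippocampal lineage list summed to 488, 500, 497 and 395 CPM, and the part of other cell types' markers in the Ntf3 levels of each class was not tested. In deep-layer neurons (layers 5 and 6) Ntf3 stood at 6.80, 6.13, 3.77 and 0.586 CPM, with no overlap, as was the case for 14.1% of all genes in this direction. Its log2 fold change there was 1.64 with an SE of 0.751 (edgeR adjusted p 0.832), 0.81 to 3.48 with 1 library left out, lowest without control replicate 2 and highest without control replicate 1, and 0.69 with classes from clusters. The hippocampal lineage list summed to 612, 809, 495 and 505 CPM in deep-layer neurons, with 3 of 6 markers higher and 0 lower in both Dnmt1 KO libraries. With no filter on low counts, edgeR called Ntf3 in upper-layer neurons (2.55) and deep-layer neurons (1.65), where 0.472% and 1.1% of all genes were called. In radial glia the levels were 6.20, 2.56, 2.47 and 1.38 CPM, from 59, 28, 20 and 11 transcripts. The genotypes did not overlap, but Dnmt1 KO replicate 2 and control replicate 1 were nearly equal. Of all genes, 14% did not overlap in this direction. The log2 fold change was 1.20 with an SE of 0.556 (edgeR adjusted p 0.806). It was 0.47 without Dnmt1 KO replicate 1. The hippocampal lineage list summed to 5448, 5666, 4686 and 4484 CPM in radial glia, again with 3 of 6 markers higher and 0 lower in both Dnmt1 KO libraries. There it was above the radial glia list itself (2949, 5067, 3875 and 3933 CPM), so it does not single out hippocampal cells among radial glia. Ntf3 was not tested in MGE interneurons or Sst+/Gad2+ nuclei, where it failed the filter on low counts.

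Bdnf stood at 3.88, 4.79, 3.23 and 2.77 CPM over all retained nuclei, from 292, 827, 324 and 312 transcripts. The genotypes did not overlap, by a margin smaller than the gap between the Dnmt1 KO libraries, and 19.3% of all genes did not overlap in this direction. Its log2 fold change was 0.52 with an SE of 0.200 (edgeR adjusted p 0.649), and 0.35 to 0.67 when 1 library was left out. The summed hippocampal lineage markers given for Ntf3 were higher in both Dnmt1 KO libraries, and with hippocampal lineage and hem nuclei left out the log2 fold change of Bdnf was 0.41 (edgeR adjusted p 0.755). It was 0.75 (SE 0.407) in upper-layer and 0.74 (SE 0.353) in deep-layer neurons and -0.36 (SE 0.417) in radial glia, with edgeR adjusted p of 0.989, 0.832 and 0.877. Without Dnmt1 KO replicate 2 the value was 0.14 in upper-layer and 0.17 in deep-layer neurons. Without Dnmt1 KO replicate 1 it was 0.99 in upper-layer neurons, 1.10 in deep-layer neurons and 0.0079 in radial glia. With classes from clusters it was 0.54, 1.08 and -0.099 in the same order.

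Ntrk2 stood at 234, 551, 504 and 513 CPM over all retained nuclei. Only Dnmt1 KO replicate 1 was below the controls. The log2 fold change was -0.39 with an SE of 0.415 (edgeR adjusted p 0.802), and it was -1.14 without Dnmt1 KO replicate 2 and 0.11 without Dnmt1 KO replicate 1. When Dnmt1 KO replicate 2 was left out, edgeR called Ntrk2 lower in radial glia (-1.93), intermediate progenitors (-1.75) and upper-layer neurons (-1.90), where 4.18%, 2.96% and 0.0999% of all genes were called. In that fit Dnmt1 KO replicate 1 is the single library of its genotype, and its spread is assumed to equal that of the controls. Without Dnmt1 KO replicate 1 the same populations gave 0.43, 0.45 and 0.46, so the sign followed the library that was kept. In MGE interneurons, which contain the targeted cells, the log2 fold change of Ntrk2 was 0.02 with an SE of 0.134 (edgeR adjusted p 0.994), and -0.08 to 0.13 when 1 library was left out. In Sst+/Gad2+ nuclei it was 0.30 (SE 0.290, edgeR adjusted p 1.00).

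Ntrk3 differed little over all retained nuclei, with 1740, 1674, 1514 and 2029 CPM and a log2 fold change of -0.08 (SE 0.188, edgeR adjusted p 0.925). In Sst+/Gad2+ nuclei it stood at 161, 473, 496 and 509 CPM, lowest in Dnmt1 KO replicate 1 with 38 transcripts in 16 nuclei. The log2 fold change there was -0.56 with an SE of 0.445 (edgeR adjusted p 1.00), and it turned to 0.10 without doublets and 0.74 with the limits set on mapped reads. Without Dnmt1 KO replicate 2, Ntrk3 was called in Sst+/Gad2+ nuclei (-1.57, edgeR adjusted p 0.0400, 0.753% of all genes called) and in radial glia (0.47, edgeR adjusted p 0.0273), and Ntf3 was called in radial glia (1.69, edgeR adjusted p 0.0440), where 4.18% of all genes were called. Without Dnmt1 KO replicate 1 the Ntrk3 value in Sst+/Gad2+ nuclei was -0.03. In these nuclei the layer 6 list summed to 1053, 2372, 2688 and 1795 CPM and the migrating newborn neuron list to 609, 1360, 1201 and 1867 CPM. Both were lowest in Dnmt1 KO replicate 1. So was the hippocampal lineage list (829, 1200, 1155 and 1471 CPM), whose class was highest in Ntrk3. The Cajal-Retzius list, whose class was lowest in mean Ntrk3, was highest there (2486, 643, 984 and 1247 CPM). The layer 5 list (613, 769, 811 and 538 CPM) and the upper-layer list (2364, 1974, 2418 and 3495 CPM) were not lowest in that library. Only some of the 19 lists are given here. The part of these markers in the Ntrk3 level was not tested.

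Ngfr and Sort1 were not called in any population where they were tested. Ngfr stood at 2.71, 3.66, 3.10 and 5.50 CPM over all retained nuclei, with a log2 fold change of -0.45 (SE 0.350, edgeR adjusted p 0.743). Control replicate 2, the deepest library, was the highest, and the value was 0.048 without it and -0.82 without control replicate 1. In deep-layer neurons Ngfr stood at 7.57, 10.8, 10.3 and 14.8 CPM, and the genotypes overlapped. Its log2 fold change there was -0.42 with an SE of 0.256 (edgeR adjusted p 0.837), and -0.70 to -0.13 with 1 library left out, lowest without Dnmt1 KO replicate 2 and highest without control replicate 2. Sort1 stood at 198, 179, 183 and 194 CPM, with a log2 fold change of -0.02 (SE 0.104, edgeR adjusted p 0.966). Across the populations tested, the log2 fold change of Sort1 was between -0.05 and 0.25.

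**Figure D3:**
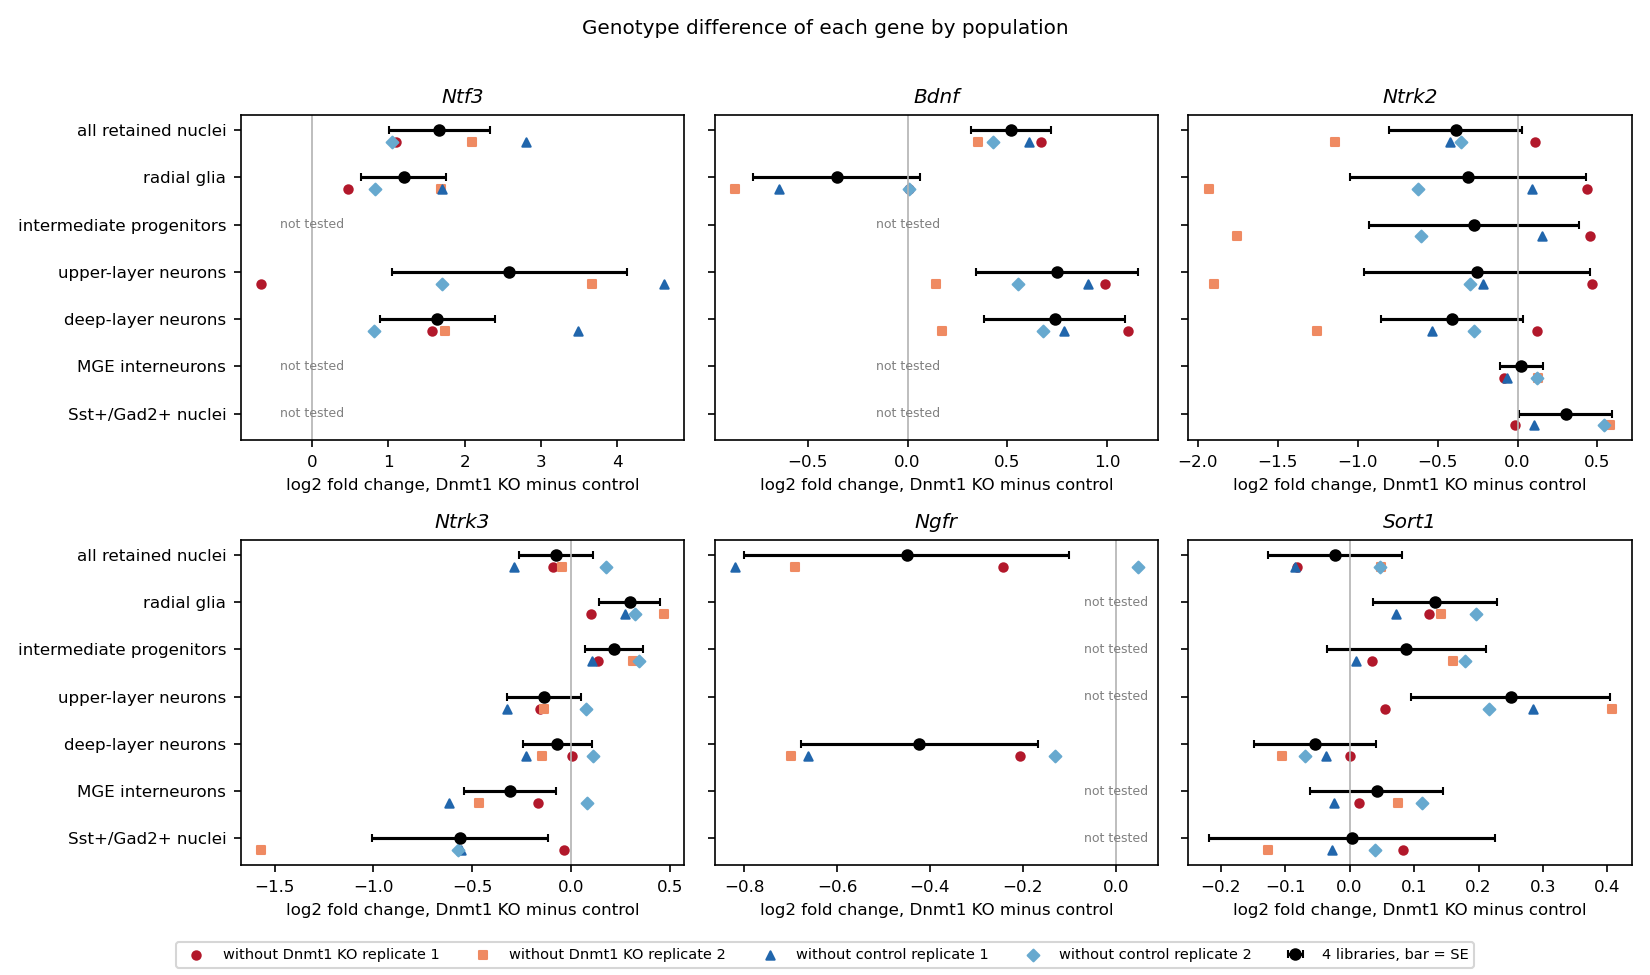
Log2 fold change of Dnmt1 KO over control for each gene and population. Black points with bars are the estimate and its SE from all 4 libraries, and coloured symbols show the estimate with the named library left out. The symbols without Dnmt1 KO replicates 1 and 2 lie on opposite sides of 0 for Ntrk2 in radial glia (0.43 and -1.93), intermediate progenitors, upper-layer and deep-layer neurons.

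Whether the genotype difference in MGE interneurons differed from that in excitatory neurons (upper-layer and deep-layer neurons together) was tested with a genotype by class term and a term per library. The term was called for 0 of the 6 genes and for 0% of 16372 genes, and 2.23% of genes had an unadjusted p under 0.05. DESeq2 called 2 genes. With no filter on low counts edgeR called Ntf3, where 0.32% of 33466 genes were called. Ntf3 and Ngfr had unadjusted p of 0.0427 and 0.0360, with edgeR adjusted p of 1.0 for both. The Ngfr term was 1.48 (SE 0.557) on the log2 scale, from 2, 18, 2 and 5 transcripts in MGE interneurons. The Ntf3 term has no interpretable size because both controls were at 0 in MGE interneurons. For Bdnf, Ntrk2, Ntrk3 and Sort1 the terms were 0.07 (SE 0.458), 0.38 (SE 0.435), -0.32 (SE 0.196) and 0.06 (SE 0.128).

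Ligand and receptor transcripts were compared in the same nuclei. Nuclei with an Ntf3 transcript were deeper, with a median of 16104, 20197, 19845.5 and 25683 transcripts against 12097, 12228, 12325 and 21115.5 in nuclei without one. In Ntf3+ nuclei Ntrk2 stood at 182, 328, 271 and 354 CPM against 237, 561, 511 and 515 in the other nuclei. The ratio was below 1 in 4 of 4 libraries, with a mean of 0.643 ± 0.105 (SD, n = 4), and 0.612 ± 0.349 over 3 libraries after thinning. Ntrk3, the receptor of the Ntf3 product, went the other way with 2343, 1752, 1948 and 2169 CPM in Ntf3+ nuclei against 1697, 1670, 1501 and 2027. Its ratio was above 1 in 4 of 4 libraries, with a mean of 1.20 ± 0.165 (SD, n = 4). From 96.1% to 100% of Ntf3+ nuclei held an Ntrk3 transcript, and 86.3% to 94.0% of the other nuclei did.

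Inside classes the pattern changed. In layer 5 neurons, Ntf3+ nuclei had less Ntrk3 than the other nuclei, with 1831, 1039 and 1634 CPM against 2707, 2847 and 2508 in the first 3 libraries. These levels rest on 12, 35 and 13 Ntf3+ nuclei, and control replicate 2 had 0. The mean ratio was 0.564 ± 0.173 (SD, n = 3) for Ntrk3 and 0.487 ± 0.181 for Ntrk2. In the hippocampal lineage, Ntf3+ and other nuclei had Ntrk3 at ratios of 1.06, 0.986, 1.04 and 0.814, on both sides of 1. In radial glia, Ntf3+ nuclei had 1715 against 1000 CPM of Ntrk3 in Dnmt1 KO replicate 1 and 1513 against 753 in Dnmt1 KO replicate 2, from 26 and 18 nuclei, and the controls had 9 and 4 such nuclei.

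Bdnf+ nuclei numbered 171, 467, 201 and 168 and were deeper than the others as well (17551 to 30719.5 against 12150 to 20805 transcripts at the median). They had more Ntrk3 in 4 of 4 libraries, with 2839, 2118, 1977 and 2571 CPM against 1689, 1644, 1494 and 2002, a mean ratio of 1.39 ± 0.192 (SD, n = 4) and 1.33 ± 0.240 after thinning. Within radial glia the ratio of Ntrk3 was 1.55 ± 0.286, and within the hippocampal lineage it was 1.19 ± 0.0331. The ratio of Ntrk2 within the hippocampal lineage was 0.936 ± 0.263 and ranged from 0.625 to 1.19, on both sides of 1. Ntrk2, the receptor of the Bdnf product, was lower in Bdnf+ nuclei of 4 of 4 libraries (186, 396, 414 and 395 against 236, 561, 508 and 519 CPM). This ratio was 0.768 ± 0.0469 as counted and 1.26 ± 0.756 after thinning, where it ranged from 0.401 to 1.93, on both sides of 1. Over all retained nuclei, both ligands were found together in 30, 57, 17 and 6 nuclei, and 10.5% to 16.8% of Ntf3+ nuclei held Bdnf against 2.63% to 3.50% of the others. Both ligands were highest in the gated hippocampal lineage, and nuclei with either were deeper. The part of class and depth in this share was not tested.

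**Figure D4:**
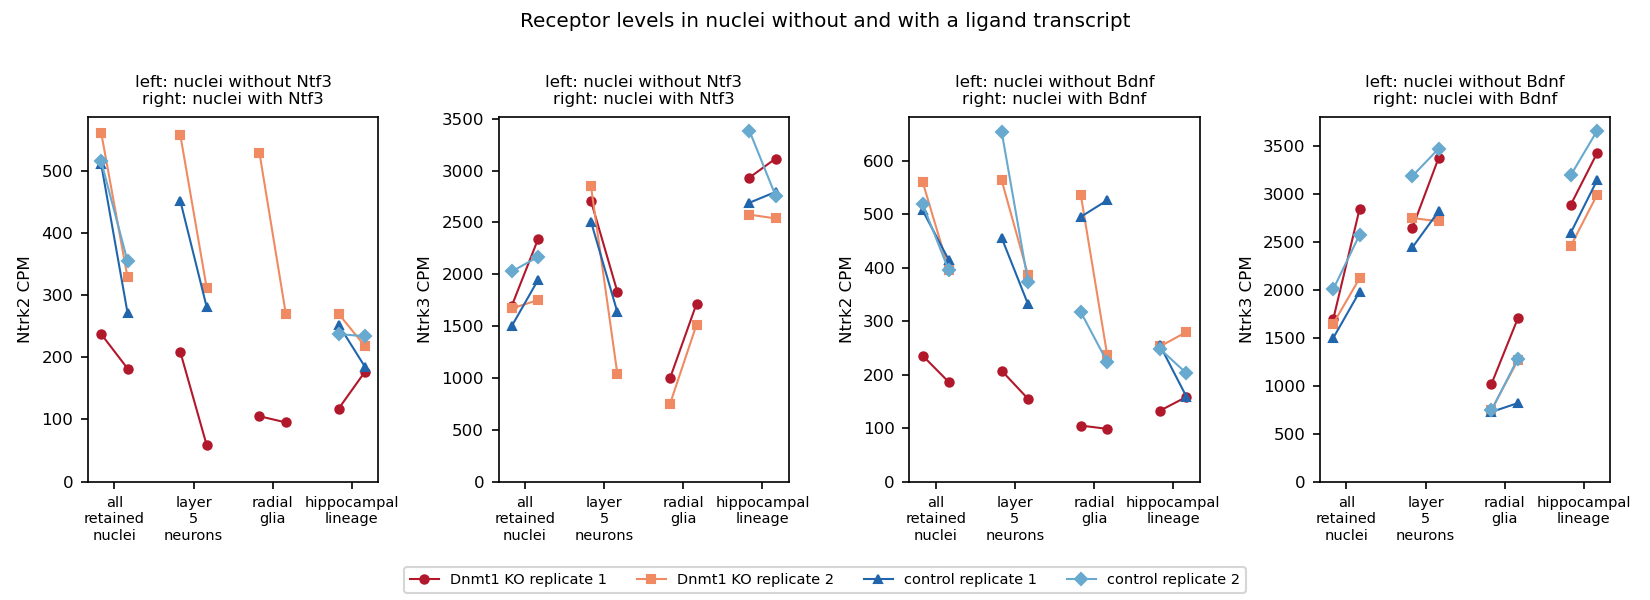
Ntrk2 and Ntrk3 levels in CPM in nuclei without (left end of each line) and with (right end) a transcript of Ntf3 or Bdnf, with a line for each library that had at least 10 nuclei with the ligand. Lines for Ntrk3 rise with Bdnf in radial glia and the hippocampal lineage and fall with Ntf3 in layer 5 neurons.

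Genes with the most similar pattern over the 14 classes were listed for each gene by the Pearson correlation of mean log2(CPM + 1). These classes share the same 4 libraries, and the values are a description over 14 points. The genes were picked as the highest of 20820 candidates with at least 50 transcripts. Some rest on few transcripts over all retained nuclei: Prss57 on 55, Lypd8 on 61, Tgm6 on 81, G630064G18Rik on 137 and Gm32122 on 150. Nearest to Ntf3 were Gm32122 (r = 0.92), Lypd8 (0.88) and Gm29865 (0.88). The genes nearest to Bdnf were Mreg (0.89), Slc26a4 (0.87) and Tgm6 (0.85). Ntrk2 was near Slc25a23 (0.90) and Gprasp2 (0.89), and Ntrk3 to Prss57 (0.94), Slc17a7, which encodes a vesicular glutamate transporter (0.90), and Msra (0.90). Ngfr was nearest to Npas2 (0.96), G630064G18Rik (0.95) and Gm56815 (0.93), and Sort1 to Aff3 (0.94), Gm6475 (0.91) and Bcl7a (0.91).

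The rest of the family was uneven in abundance. Ntf5, which encodes neurotrophin-4, had 4 transcripts in all retained nuclei together, so it could not be compared. Among the relatives of sortilin, Sorcs1 was high in radial glia (833, 1313, 1012 and 911 CPM), Sorcs3 in CGE interneurons (1897, 1105, 947 and 1897), Sorcs2 in the hippocampal lineage (139, 170, 199 and 183) and Sorl1 in migrating newborn neurons (217, 405, 465 and 375).

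Of 56 further genes of neurotrophin processing, sorting, signalling, regulation and response, 54 were tested over all retained nuclei and 0 were called by edgeR in either direction. Their median log2 fold change was -0.007 against -0.012 over all genes. An unadjusted p under 0.05 was seen for 4 of the 54, a share near the 7.49% of all genes. They were 2 higher genes, Pcsk6, a proprotein convertase (1.11), and Ndn, which encodes necdin (0.57), and for 2 lower genes, the adaptors Crk (-0.38) and Crkl (-0.26), each with an edgeR adjusted p of 0.649.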

How the data were processed

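The authors processed the reads with Trailmaker (GRCm39) and deposited the unfiltered counts of transcripts, not normalized. The submitters' processing notes name R 4.4.1 and Seurat 5.0.1.9001. The aligner version, the annotation release and the counting of introns and strand are not given in the sources used here, and reads of overlapping or antisense genes may not be told apart.

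The study's range of 1500 to 60000, stated there for reads, was applied to transcripts, and a mitochondrial limit of 10% removed 0 nuclei. Larger barcodes, left out here, held 1.35%, 4.37%, 19.2% and 29.4% of each library's transcripts (Dnmt1 KO replicates first). Scrublet (scanpy 1.11.5) called 2.96% to 7.36% of nuclei doublets, which were kept in the main values. Each nucleus was scored with 19 marker lists. It took the class with the highest score if at least 3 markers were detected and the score led the next by 0.1. Subplate neurons (36 nuclei) and oligodendrocyte precursors (48) were too few to describe. Leiden clusters (leidenalg 0.10.2), named from the same lists, were the alternative. CPM was computed here from the deposited counts as the transcripts of a gene over those of all genes in the class and library, on the usual scale. Because classes were rebuilt here, they may differ from those of the study.

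Libraries are the replicates, and the study states 2 brains from 2 mice per genotype. Counts were summed per library and tested with edgeR 4.0.16 in R 4.3.3 (TMM, filterByExpr, group alone). DESeq2 1.42.0 was an alternative. Scripts were tested on simulated data. The authors' labels put control replicate 2 in batch 2 and the other libraries in batch 1, so no comparison can be made within batch 2, and within batch 1 the genotypes are compared by leaving that library out. Limits for counts of 0 and counting intervals cover counting error only. They take transcripts as independent, while those of Ntf3 often lay several to a nucleus.

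Members and lists were chosen with earlier results of these data known. The text names the 6 genes in every comparison, called genes of the pathway list, 7 relatives whatever their values, Dnmt1, and for each of the 6 the 3 genes with the highest correlation over classes. Some of these genes are not reported here. Gene coordinates and sequences come from GENCODE vM39 and GRCm39. Pcsk6, Ndn, Crk and Crkl were named after their values were seen.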

Additional observations from a re-analysis of the deposited data

How the results depend on the processing

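With 2 libraries per genotype, each value rests on few animals, and low genes (Ntf3, Bdnf and Ngfr) rest on few transcripts outside their main classes. The call of 0 of the 6 genes held in all 7 populations under DESeq2, other size factors, batch as a covariate, leaving out doublets and the limit on mapped reads. With no filter on low counts, 1 gene (Ntf3) was called in upper-layer neurons, 1 in deep-layer neurons and 1 in the genotype by class term. With 1 library left out the number called ranged from 0 to 3 in radial glia and from 0 to 1 in intermediate progenitors, upper-layer neurons and Sst+/Gad2+ nuclei. It was 0 in the other populations and for the pathway list. Every call came without Dnmt1 KO replicate 2. The cause was not tested.

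Replicate numbers did not pair the samples by the labels, and same-numbered libraries deviated with correlations of -0.062 to 0.125. With the replicate block, 0 of the 6 genes were called in every population, the log2 fold change of Ntf3 over all retained nuclei was 1.84, and the direction changed for Sort1 in Sst+/Gad2+ nuclei (-0.019).

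Many of the directions that changed were of small differences, but not all. Larger changes were those of Ntrk3 in Sst+/Gad2+ nuclei and of the Bdnf term with classes from clusters. With 1 library left out, Ntrk2 in several classes and Ntf3 in upper-layer neurons also changed direction widely. With batch as a covariate the log2 fold changes of Ntrk3, Ngfr and Sort1 over all nuclei became 0.17, 0.043 and 0.041, that of Bdnf in radial glia 0.0038, and that of Ntrk3 in upper-layer, deep-layer and MGE neurons 0.074, 0.11 and 0.081. With 1500 to 60000 mapped reads in place of transcripts, Ntrk3 and Sort1 over all nuclei became 0.043 and 0.014, Ntrk3 in MGE interneurons 0.27, Ntrk3 and Sort1 in Sst+/Gad2+ nuclei 0.74 and -0.064, and the genotype by class terms of Ntrk3 and Bdnf 0.17 and -0.090. Without an upper limit on transcripts Sort1 over all nuclei was 0.0080. Without doublets Ntrk3 and Sort1 in Sst+/Gad2+ nuclei were 0.10 and -0.046. Under DESeq2 Sort1 in Sst+/Gad2+ nuclei was -0.023 and the Bdnf term -0.0004. With classes from clusters, Sort1 in intermediate progenitors was -0.0033, Ntrk3 in upper-layer and deep-layer neurons 0.0045 and 0.0055, and the Bdnf term, chosen after seeing the data, -0.94.

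With 1 library left out, Ntrk2 ranged from -1.14 to 0.11 over all nuclei, -1.93 to 0.43 in radial glia, -1.75 to 0.45 in intermediate progenitors, -1.90 to 0.46 in upper-layer, -1.25 to 0.12 in deep-layer, -0.085 to 0.13 in MGE neurons and -0.018 to 0.58 in Sst+/Gad2+ nuclei. Ntrk3 ranged from -0.29 to 0.18, Ngfr from -0.82 to 0.048 and Sort1 from -0.085 to 0.050 over all nuclei. Ntf3 ranged from -0.67 to 4.61 in upper-layer neurons, Bdnf from -0.87 to 0.0079 in radial glia, Ntrk3 from -0.33 to 0.076 in upper-layer, -0.23 to 0.11 in deep-layer and -0.62 to 0.080 in MGE neurons, and Sort1 from -0.11 to 0.0011 in deep-layer, -0.024 to 0.11 in MGE neurons and -0.13 to 0.082 in Sst+/Gad2+ nuclei. The terms of Bdnf, Ntrk2 and Sort1 ranged from -0.29 to 0.17, -0.38 to 1.11 and -0.039 to 0.15.

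With classes from clusters, the mean level in the hippocampal lineage was 7.61 CPM for Bdnf and 3299 CPM for Ntrk3, against 18.9 and 2897 CPM. The Ntrk2 ratio of Bdnf+ nuclei was 1.26 after thinning. Within layer 5 neurons and radial glia, and for Bdnf in the hippocampal lineage, fewer than 10 ligand nuclei per library remained after thinning, so no such ratio is given.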
